A study of Mus musculus with 34 samples.

Results

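The circadian clock genes described here are 10 of the 51368 genes in the deposited table. They were chosen by name as the core clock genes Arntl, Clock, Per1, Per2, Per3, Cry1, Cry2, Nr1d1 and Nr1d2 and the output gene Dbp, and all 10 were found by their Ensembl identifiers. The RNA came from liver and heart of 1 wild-type C57BL/6J mouse aged 12 weeks, untreated as far as the labels say, whose sex the labels give differently in separate fields. The time of day of collection was not given in the sources used here. Liver RNA was made into 9 libraries by polyA selection (capture of RNA by its poly(A) tail), 9 by rRNA pull-down (probes that bind ribosomal RNA are removed with it) and 9 by rRNA digestion (ribosomal RNA bound to probes is degraded by enzyme). Each set of 9 crossed 3 PCR ramp rates, the speed at which the thermocycler changes temperature, with 3 fragment lengths, 1 library per combination. A further 3 liver libraries in batch 1 and 3 in batch 2, and 1 heart library in batch 1, had no selection or depletion, a slow ramp and medium fragments. Selected and depleted libraries started from 200 ng of RNA, unselected ones from 20 ng, and all had 13 PCR cycles. Every library of a tissue came from the same animal, so each p-value measures the spread between library preparations and none between animals. Comparisons of methods, and of length or ramp over all methods, had no term for length differences that vary by method. Such differences add to that spread.

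The clock is a feedback loop of transcription. CLOCK and BMAL1, the protein of Arntl, bind E-box sequences and switch on the Per, Cry, Nr1d and Dbp genes. PER and CRY proteins return to the nucleus and inhibit CLOCK and BMAL1, while REV-ERB proteins, made from Nr1d1 and Nr1d2, repress Arntl, and DBP activates genes that carry D-box sequences. In liver most of these transcripts rise and fall every day, so the levels below describe 1 mouse at a single, unstated time.

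The promoters of Per1, Nr1d1, Cry2 and Per3 are shown because these members shared low levels after rRNA pull-down. Each line gives the 250 bases before a RefSeq transcription start on build GRCm38.p6, 5′ to 3′ on the gene's strand, with clock motif letters in capitals. The Per1 window is chr11:69098699-69098948 on the plus strand, and the others, all on the minus strand, are chr11:98775378-98775627 for Nr1d1, chr2:92434070-92434319 for Cry2 and chr4:151044666-151044915 for Per3.
Per1: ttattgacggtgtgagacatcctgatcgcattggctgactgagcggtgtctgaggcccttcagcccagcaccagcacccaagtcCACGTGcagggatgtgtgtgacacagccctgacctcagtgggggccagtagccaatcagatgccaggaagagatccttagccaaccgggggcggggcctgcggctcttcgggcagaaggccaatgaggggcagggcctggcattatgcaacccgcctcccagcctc
Nr1d1: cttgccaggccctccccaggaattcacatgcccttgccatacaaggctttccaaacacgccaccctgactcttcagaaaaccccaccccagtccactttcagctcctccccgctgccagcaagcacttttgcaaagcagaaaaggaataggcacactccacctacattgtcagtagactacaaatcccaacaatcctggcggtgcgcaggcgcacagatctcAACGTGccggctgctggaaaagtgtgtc
Cry2: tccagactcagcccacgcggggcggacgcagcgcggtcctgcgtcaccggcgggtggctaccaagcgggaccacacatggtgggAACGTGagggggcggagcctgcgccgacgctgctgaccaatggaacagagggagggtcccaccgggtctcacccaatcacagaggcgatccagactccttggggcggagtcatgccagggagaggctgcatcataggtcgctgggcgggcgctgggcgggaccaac
Per3: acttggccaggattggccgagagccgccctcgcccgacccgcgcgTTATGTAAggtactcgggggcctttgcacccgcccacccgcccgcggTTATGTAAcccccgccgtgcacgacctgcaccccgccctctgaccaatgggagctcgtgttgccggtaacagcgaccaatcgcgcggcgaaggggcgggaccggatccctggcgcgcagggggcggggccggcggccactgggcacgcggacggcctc
The Per1 window shown held 1 E-box, CACGTG, beginning 166 bases before the start, and the window of a second Per1 start, chr11:69099902-69100151, held none of the letters searched. Nr1d1 and Cry2 each held 1 variant E-box, CACGTT or its reverse complement, and Per3 held 2 matches to the D-box letters TTATGTAA, TTACATAA, TTATATAA or TTACGTAA. On either strand, the E-box was present in 6.02% of all 32841 RefSeq windows of the same length, the variant E-box in 3.85% and a D-box in 1.43%. No Per2 window was analysed here. The Cry1 window, not shown, held 1 E-box and 1 variant. No match to these letters, or to the REV-ERB half-site letters TAGGTCA and TGGGTCA (5.38% of windows), lay in the windows of Arntl, Clock, Nr1d2 and Dbp. A match describes letters only, and whether the motifs bear on the values below was not tested.

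Depth in M counts (M, mega) ranged from 20.0 to 30.2 in digestion, 23.5 to 41.4 in polyA and 19.9 to 21.7 in unselected liver libraries, and was 22.3 in heart. In pull-down, 8 libraries held 23.4 to 39.2 M and the library with slow ramp and long fragments held 1.13 M. It is called the low-depth pull-down library below. Ribosomal RNA genes plus Lars2, whose counts moved with them, took 84.8 to 85.7% of unselected liver counts, 80.6% of heart, 14.2 to 24.5% of pull-down and at most 1.12% of the others. The 10 members summed to 1740 to 1902 counts in an unselected liver library and 14724 to 21471 in a digestion library. Levels are given as normalised CPM, the count divided by the library's total in M after TMM rescaling, which sets the bulk of genes equal across libraries. Without that rescaling, all 10 members were higher in each of the 3 methods than in unselected RNA, as was the median of all genes, by 2.67, 2.31 and 2.85 (log2) for polyA, pull-down and digestion. On plain totals 92.5, 94.9 and 97.9% of all genes were called higher in those comparisons. These were 97.6, 99.7 and 99.7% of the genes called, against 50.8, 53.3 and 48.1% after TMM. With totals that leave out ribosomal RNA genes and Lars2 the shares were 37.6, 26.4 and 71.9%. DESeq2 gave 34.0% for digestion and 41.1% for pull-down. A member called higher or lower below is so relative to the bulk of genes. The hepatocyte list, 7 genes such as albumin, summed to 243925 to 260398 counts in unselected liver and 1373 in heart, and the cardiomyocyte list, also 7 genes, to 0 to 5 and to 206038.

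The members spanned a wide range of levels. Per kilobase of exon, in normalised CPM, the digestion libraries placed Nr1d1 first at 34.8 ± 1.25 (SD, n = 9), then Dbp at 27.1 ± 1.86 and Nr1d2 at 17.0 ± 0.608. Cry2 (5.10), Per1 (4.34), Clock (3.68), Per3 (3.12) and Per2 (2.39) followed, and Cry1 at 0.973 ± 0.0629 and Arntl at 0.278 ± 0.0281 were lowest. No neighbours in that order overlapped in their 9 libraries. Exon length joins all annotated exons, 13727 bases for Clock beside 9744 in its longest coding transcript. An order by transcript length was not made, and close members could change places in it. Both REV-ERB genes and Dbp thus stood far above the activator gene Arntl in this liver. In polyA libraries the same 3 genes led, but Nr1d1 (35.6) overlapped Dbp (28.8), and Clock came after Per3 and Per2 on this per-kilobase scale, at 1.68 against 2.27 and 2.15, with Per2 overlapping both. Pull-down placed Dbp (21.1) before Nr1d1 (16.4), and these overlapped. In its 8 deeper libraries Dbp (19.2) led, overlapping Nr1d2 (14.4), which overlapped Nr1d1 (14.3). In unselected liver the order was that of digestion, with Clock and Per3 overlapping in both batches.

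**Figure D1:**
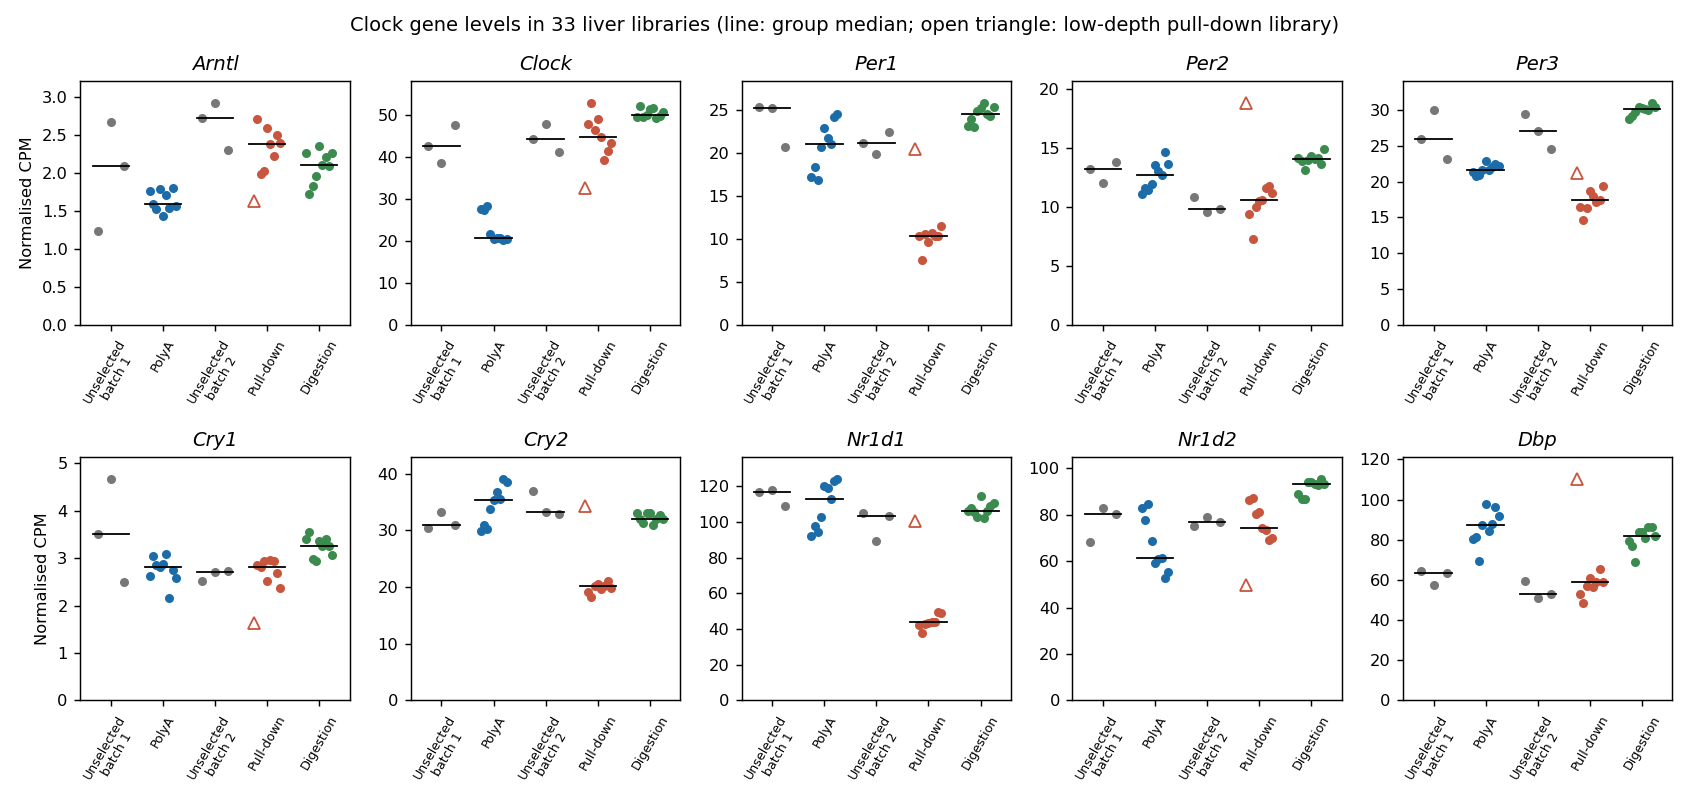
Normalised CPM (vertical axis, from 0) of each clock gene in the 33 liver libraries, by group on the horizontal axis, with 1 point per library, a line at the group median and an open triangle for the low-depth pull-down library. Digestion points lie close together, pull-down points of Per1, Per3, Cry2 and Nr1d1 lie low, and polyA points of Clock lie low.

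Members were tested with edgeR's quasi-likelihood test over all genes, at a Benjamini-Hochberg adjusted p under 0.05, and those past it are called higher or lower. Pull-down against unselected RNA of batch 2 gave 0 members higher and 4 lower, where 17.5% and 15.3% of all genes were called. When only these 2 groups were fitted the count was again 0 higher and 4 lower, where 8.10% and 11.5% of all genes were called. Digestion against the same libraries gave 2 higher and 0 lower (7.08% and 7.64% of all genes). The share called higher was 3.02% without the second and 4.36% without the third unselected library of that batch, with 1 member called in each. PolyA against unselected RNA of batch 1 gave 1 higher and 2 lower (25.6% and 24.8%). The median log2 difference of the 10 members was -0.09 in pull-down, 0.20 in digestion and -0.19 in polyA, beside 0.06, 0.04 and 0.04 over all genes.

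Between the methods, 9 members were higher and 0 lower in digestion than in pull-down, where 34.7% of all genes were called higher and 36.0% lower. PolyA against pull-down gave 6 higher and 3 lower (36.4% and 36.2% of all genes). PolyA against digestion gave 0 higher and 7 lower (38.4% and 42.2%). The members' median log2 difference was 0.45, 0.32 and -0.24 in these comparisons, against -0.01, 0.01 and -0.03 over all genes. PolyA libraries were made in batch 1 and the others in batch 2, so a comparison of polyA with them also crosses batches. Between the unselected libraries of the batches no member passed the test, and batch 2 minus batch 1 was 0.05 for Clock, with a 95% interval from -0.19 to 0.29, and -0.21 for Nr1d1, from -0.52 to 0.11. Totals without ribosomal RNA genes put the median of all genes at 0.26 for digestion minus pull-down and at -0.28 for polyA minus digestion. On that scale 73.7% and 31.5% of called genes were higher, against 49.1% and 47.6%, and in polyA minus digestion Cry2, Nr1d1 and Dbp were also lower. On plain totals 90.3% of called genes were higher for digestion minus pull-down, 31.5% for polyA minus digestion, and for polyA minus pull-down 73.1% against 50.1%.

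Clock and Arntl encode the activator pair. Clock in polyA libraries ran from 20.3 to 28.2 normalised CPM with a median of 20.7, against 42.6, 38.7 and 47.6 in the unselected batch 1 libraries. All 9 polyA values lay below all 3. The log2 difference was -0.96 ± 0.11 (SE), 1.94-fold, with an edgeR adjusted p of 7.54e-09. Against digestion, where Clock ran from 49.4 to 52.3, the difference was -1.14 ± 0.06 (adjusted p = 5.51e-18 by edgeR), and polyA was the lower in 9 of 9 pairs matched on ramp and length. In pull-down Clock had a median of 44.8 and did not pass the test against unselected RNA (44.3, 47.9 and 41.3), with a log2 difference of -0.02 and a 95% interval from -0.23 to 0.19. Clock is the longest member, with 13727 exon bases.

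Arntl, whose protein BMAL1 pairs with CLOCK, was near the limit of these libraries. It had 6 to 14 counts in an unselected liver library and 54 to 113 in the polyA and digestion libraries. PolyA values ran from 1.44 to 1.81 normalised CPM, digestion values from 1.73 to 2.35 and pull-down values from 1.63 to 2.71. All 3 ranges overlapped, though the lowest pull-down value was that of the low-depth library, from 2 counts. The other 8 pull-down libraries held 1.98 to 2.71, above all polyA values. The difference polyA minus digestion was -0.36 ± 0.08 on the log2 scale (edgeR adjusted p = 8.82e-05), and polyA minus pull-down was -0.52 ± 0.08. Arntl was the member not called between digestion and pull-down (log2 -0.16, adjusted p = 0.0597 by edgeR). No difference from unselected RNA passed for Arntl, and the 95% interval for digestion ran from -0.73 to 0.07.

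Per1, Per2 and Per3 encode the PER inhibitors. Per1 in pull-down had a lowest value of 7.56, a median of 10.4 and a highest of 20.4 normalised CPM, against 21.1, 19.8 and 22.4 in unselected batch 2. The 8 deeper libraries, up to 11.5, lay below all 3, and the low-depth library lay among them. The log2 difference was -1.04 ± 0.14 (2.06-fold, edgeR adjusted p = 2.93e-07). Digestion held Per1 at 23.0 to 25.7, above pull-down by 1.28 ± 0.07 on the log2 scale and in 9 of 9 matched pairs, and polyA held it at 16.8 to 24.5. Of all genes tested, 95.7% had a smaller digestion minus pull-down difference than Per1.

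Per3 separated digestion from the other methods. Its values were 28.8 to 31.0 normalised CPM in digestion, 20.8 to 22.8 in polyA and 14.7 to 21.2 in pull-down, with the low-depth library highest in pull-down. Digestion was higher by log2 0.80 ± 0.04 over pull-down (edgeR adjusted p = 1.51e-17) and 0.46 ± 0.04 over polyA. Against unselected RNA Per3 was lower in pull-down (log2 -0.64 ± 0.08) and in polyA (-0.27 ± 0.08, edgeR adjusted p = 0.0043). The polyA call was lost without the second unselected library of batch 1, at -0.17 with an adjusted p of 0.160. Per3 overlaps Camta1 on the same strand with no shared exon bases, and Camta1 was also higher in digestion than in pull-down, by 1.14 on the log2 scale.

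Per2 ran from 7.29 to 18.8 normalised CPM in pull-down, with the low-depth library highest and the other 8 at most 11.8. Digestion held 13.2 to 14.9 and unselected batch 2 held 10.9, 9.59 and 9.84, so digestion lay above all 3. The difference of log2 0.48 ± 0.14 passed with an edgeR adjusted p of 0.0149, which became 0.0887 without the second and 0.0686 without the third unselected library of that batch. Unselected batch 1 held Per2 at 13.2, 12.01 and 13.8, inside or below the digestion range. No batch difference passed for Per2 (log2 -0.36 ± 0.17, adjusted p = 0.883 by edgeR).

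Cry1 and Cry2 encode the cryptochromes, partners of PER in inhibition. Of this pair, only Cry2 was called lower in pull-down than in unselected RNA. For Cry1 that difference was log2 0.06 ± 0.19 without the low-depth library. Cry2 in pull-down ran from 18.3 to 21.0 normalised CPM in the 8 deeper libraries and was 34.3 in the low-depth one, against 37.0, 33.1 and 32.9 in unselected batch 2. The deeper 8 lay well below, and the log2 difference was -0.76 ± 0.10 (edgeR adjusted p = 2.72e-07). Digestion (30.9 to 33.1) and polyA (29.8 to 39.1) overlapped and did not differ by the test. Cry1 was low throughout, at 2.16 to 3.56 normalised CPM in polyA and digestion. It was higher in digestion than in pull-down by log2 0.24 ± 0.07 and than in polyA by 0.24 ± 0.06, both past the test, though the ranges overlapped. Whether the pull-down differences of Cry1 and Cry2 differ from each other was not tested.

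Nr1d1 and Nr1d2 encode REV-ERBα and REV-ERBβ, nuclear receptors that repress Arntl. Nr1d1 in the 8 deeper pull-down libraries ran from 38.0 to 49.3 normalised CPM, against 105.2, 89.2 and 103.1 in unselected batch 2 and 102.3 to 114.4 in digestion. No value of those 8 came near the other groups, while the low-depth library was at 100.5. The log2 difference of pull-down from unselected RNA was -1.14 ± 0.15 (2.20-fold, edgeR adjusted p = 2.42e-07), and -1.23 ± 0.07 without the low-depth library. PolyA, at 91.9 to 124, overlapped digestion, and their difference was 0.03 ± 0.08. Nr1d2 did not follow Nr1d1. Its pull-down values, 49.8 to 87.4 with a median of 74.1, surrounded the unselected ones (75.3, 79.2 and 77.1), and the log2 difference was 0.00 with an interval from -0.24 to 0.25. In digestion Nr1d2 was at 86.7 to 95.4, above polyA (52.9 to 84.5) in every library and by log2 0.47 ± 0.07. That average covers unlike lengths, with means of 93.7 in digestion and 56.55 in polyA for short fragments but 87.5 and 81.7 for long ones.

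Dbp encodes a D-box activator and is a direct output of the loop. It was higher than in unselected RNA after digestion (68.8 to 86.6 against 59.4, 51.1 and 52.8 normalised CPM) and after polyA selection (69.2 to 97.8 against 64.5, 57.4 and 63.4). Neither set overlapped its unselected libraries. The log2 differences were 0.64 ± 0.13 (edgeR adjusted p = 5.04e-04) and 0.55 ± 0.12 (4.42e-04). In pull-down the 8 deeper libraries held 48.3 to 65.6. The difference over all pull-down libraries was 0.19 ± 0.13, and without the low-depth library it was 0.10 ± 0.06. Neither passed. Dbp and Sphk2 share 539 exon bases on opposite strands, and Sphk2 was higher in digestion than in unselected RNA as well, by 0.56. The strand setting of the counting was not given in the sources used here, so reads from the shared bases cannot be told apart with certainty. The same holds for Nr1d1 and Thra (263 shared bases), where Thra was at most 10.6 normalised CPM in liver, and for Cry2 and D930015M05Rik (295 shared bases), which was at most 0.0898.

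**Figure D2:**
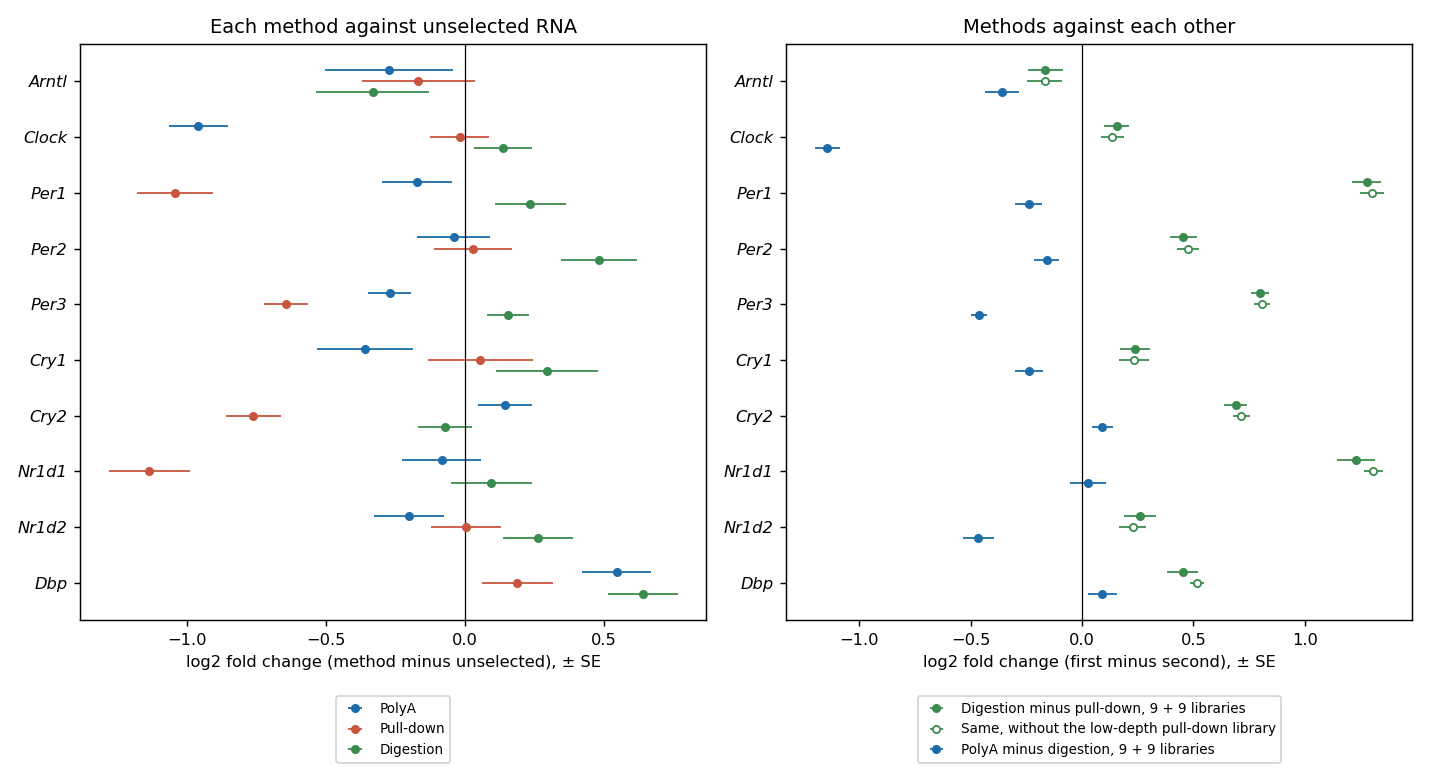
Log2 fold change ± SE of each clock gene (horizontal axis) for each method against the unselected libraries of its batch (left) and for digestion minus pull-down and polyA minus digestion (right); open points leave out the low-depth pull-down library. Per1 and Nr1d1 lie near 1.28 and 1.23 for digestion minus pull-down, and Clock lies at -1.14 for polyA minus digestion.

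The low-depth pull-down library stood apart for most members. Its counts were 123 for Nr1d1, 135 for Dbp and 25 for Per1, and 2 each for Arntl and Cry1. For 6 of the 10 members its exact Poisson 95% interval, which covers counting error only, lay outside the range of the other 8 pull-down libraries. It was above them for Per1, Per2, Cry2, Nr1d1 and Dbp and below them for Nr1d2. Nr1d1 was at 100.5 normalised CPM with an interval from 83.5 to 119.9, against 38.0 to 49.3 in the other 8 and 102.3 to 114.4 in digestion. Dbp, at 110.3 (92.5 to 130.5), lay above the digestion range of 68.8 to 86.6 too. Without this library the 4 members lower in pull-down than in unselected RNA were the same, with log2 differences of -1.23 for Nr1d1, -1.07 for Per1, -0.79 for Cry2 and -0.66 for Per3. The 9 members higher in digestion than in pull-down were also the same.

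Other clock pathway genes were read from a list of 24, of which 23 were tested (Rorb was too low). In pull-down against unselected RNA, 1 was higher and 7 lower (17.5% and 15.3% of all genes). The lowest were Usp2, a deubiquitinase (log2 -1.32 ± 0.09), and Hlf, a PAR-domain factor related to DBP (-1.10 ± 0.08). In digestion minus pull-down 14 were higher and 3 lower (34.7% and 36.0% of all genes), with a list median of 0.20 beside -0.01 over all genes, and Usp2 (1.47) and Hlf (1.28) led again. In polyA minus digestion 7 were higher and 12 lower (38.4% and 42.2% of all genes). The lowest was Rora, a receptor that opposes REV-ERB at the same sites (-1.27 ± 0.06), followed by Noct, a clock-controlled phosphatase (-0.91 ± 0.04). Timeless was higher in polyA by 0.69 ± 0.09 and Nfil3, a repressor at D-boxes, by 0.58 ± 0.03. In digestion against unselected RNA 2 were higher and 0 lower (7.08% and 7.64%), and in polyA against unselected RNA 5 were higher and 3 lower (25.6% and 24.8%). Marker lists of other cells also differed between methods on the scale of percent of counts. The 3 erythroid genes took 0.00043 to 0.0007% in digestion and 0.0321 to 0.0452% in pull-down, and the 3 endothelial genes 0.0196 to 0.0205% in digestion and 0.00688 to 0.00749% in polyA. Their part in the members' differences was not tested.

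Across the 33 liver libraries, log2 levels (prior count of 2) of Per1, Cry2 and Nr1d1 ran together, with Pearson's r of 0.97 for Per1 with Nr1d1, 0.97 for Cry2 with Nr1d1 and 0.93 for Per1 with Cry2. Clock and Nr1d2 had an r of 0.76, and Clock and Cry2 -0.43. The libraries were made from 1 RNA and differ in method, fragment length and depth, so these values are a description. Among 8634 genes with a mean of at least 5 normalised CPM, those most like Nr1d1 were Mbd6 and Cherp (both 0.98), and those most like Clock were Map3k2 and Mib1 (both 0.99). The genes most like Cry2 were Nr1d1 and Syvn1 (0.96), so a member was nearest to another member in that case.

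In polyA libraries 7 of the 10 members differed between fragment lengths. Of these, 2 were higher with long than with short fragments and 5 lower, where 27.4% and 27.7% of all genes were called. Nr1d2 was at 82.9, 77.8 and 84.5 normalised CPM with long fragments and 61.3, 52.9 and 55.4 with short ones, and Clock was at 27.7, 27.5 and 28.2 against 20.6, 20.3 and 20.6. Both genes were separate between lengths, with log2 differences of 0.52 ± 0.04 and 0.43 ± 0.04. Per1 went the other way, at 17.2, 18.3 and 16.8 with long and 21.0, 24.2 and 24.5 with short fragments (log2 -0.43 ± 0.05, edgeR adjusted p = 2.67e-05). Nr1d1 (-0.35), Cry2 (-0.33), Per2 (-0.28) and Dbp (-0.27) were also lower with long fragments. Of the 23 other clock pathway genes tested, 7 were higher, with Nampt first (0.58), and 6 lower, with Usp2 lowest (-0.39), against the same shares of all genes.

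In digestion libraries 0 members were higher and 2 lower with long fragments (8.80% and 9.15% of all genes). Dbp was at 79.3, 76.8 and 68.8 normalised CPM with long and 86.6, 86.4 and 82.1 with short fragments, which did not overlap, and the log2 difference was -0.18 ± 0.03. Nr1d2 differed by -0.10 ± 0.02 (edgeR adjusted p = 0.00492). That call was lost without the digestion library of medium ramp and short fragments (adjusted p = 0.0574) and by DESeq2 (0.0969). In digestion the sign for Nr1d2 was thus the opposite of that in polyA.

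In pull-down libraries 0 members passed in either direction (4.42% and 1.66% of all genes, 877 in all), with 0 at an unadjusted p under 0.05 by edgeR and 0 called by DESeq2. The low-depth library is 1 of the 3 with long fragments, and each of the others left out in turn gave 77 (without medium ramp, short fragments) to 365 genes (without fast ramp, medium fragments). Without it 19.2% of all genes were called higher and 18.2% lower, and 6 members passed, Nr1d2 (0.33) and Clock (0.28) higher and Per2 (-0.47), Dbp (-0.28), Nr1d1 (-0.26) and Per3 (-0.24) lower with long fragments. Nr1d2 was then at 86.4 and 87.4 normalised CPM with long and 73.2, 69.2 and 70.02 with short fragments.

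Over all 27 libraries 2 members were higher and 3 lower with long fragments (24.8% and 19.9% of all genes), and 8 were called without the low-depth library, where 25.6% of all genes were higher and 24.2% lower. The higher ones were Clock (log2 0.23) and Nr1d2 (0.22), and the lower ones Per1 (-0.22), Per2 (-0.21) and Per3 (-0.09). Per3 was not called when no gene was filtered out (adjusted p = 0.158 by edgeR), and Nr1d2 was not called on plain totals (0.127). Long fragments had 55.5% of all called genes higher, against 33.1% on plain totals and 44.6% on totals without ribosomal RNA genes. Within pull-down the share was 72.75%, against 18.0% on plain totals and 57.6% by DESeq2. The length difference itself varied between methods for 4 members, where 31.5% of all genes were called. These were Nr1d2 (edgeR adjusted p = 6.11e-04), Clock (0.00224), Cry2 (0.00573) and Per1 (0.04998). Per1 was not called by DESeq2 (0.174) or on totals without ribosomal RNA genes (0.0502), where 32.2% and 32.7% of all genes were called. Without the low-depth library Nr1d1 (1.10e-04) and Per2 (0.00284) passed too, where 40.5% of all genes were called. Per2 (0.0126) and Per3 (0.0139) passed on plain totals (44.7% of all genes), and Per2 (0.0462) when no gene was filtered out (16.2%), each by edgeR's adjusted p.

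**Figure D3:**
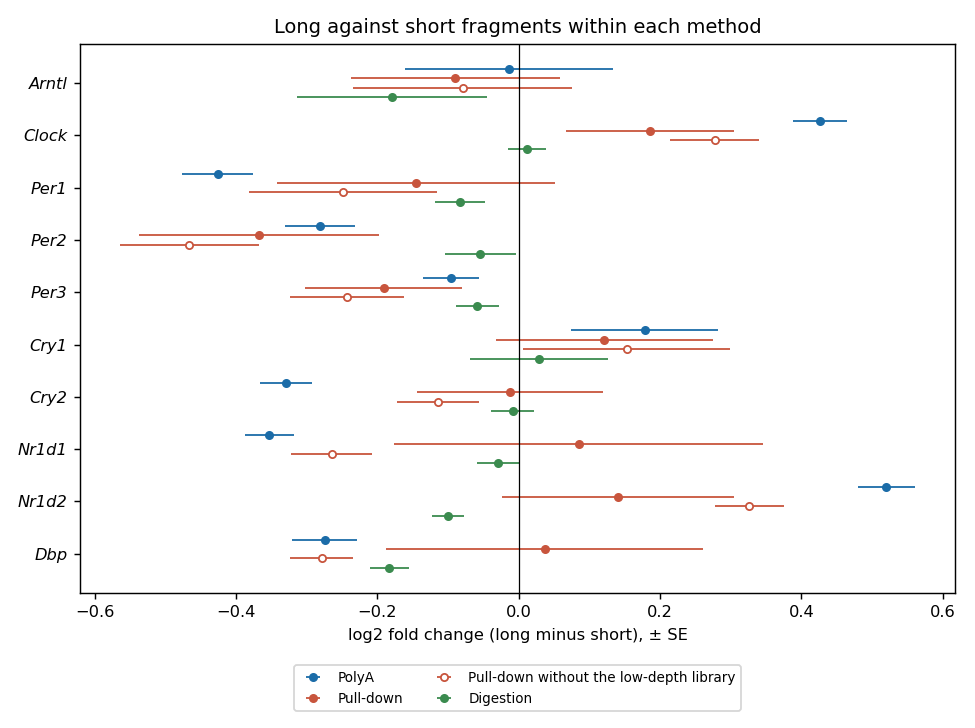
Log2 fold change ± SE of long minus short fragments (horizontal axis) for each clock gene within polyA, pull-down and digestion libraries, 3 libraries per length; open points leave out the low-depth pull-down library. Clock and Nr1d2 lie right of 0 in polyA at 0.43 and 0.52, and Per1 lies left at -0.43.

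The polyA length difference was set beside the base composition of the members' transcripts. GC content of the longest coding transcript was 40.9% for Clock and 41.8% for Nr1d2, the members higher with long fragments, and 54.4 to 61.6% for Per2, Cry2, Nr1d1, Per1 and Dbp, the members lower. Over the 10 members Pearson's r between GC content and the log2 difference was -0.92 (Spearman's rho -0.855), and over 13005 protein-coding genes it was -0.61 (rho -0.83). Genes of 40 to 45% GC had a median of 0.40, beside 0.43 for Clock and 0.52 for Nr1d2, and genes of 45 to 50% one of 0.10, beside -0.01 for Arntl. Genes of 50 to 55% had a median of -0.14, with Per3 at -0.10, Per2 at -0.28 and Cry1, on the other side of 0, at 0.18. Genes of 55 to 60% had a median of -0.32, beside -0.33 for Cry2, -0.35 for Nr1d1 and -0.43 for Per1. Dbp had the highest GC content of the members and was at -0.27, above the median of -0.475 of genes of at least 60% GC. The digestion minus pull-down difference had an r of 0.64 over the members and 0.11 over 13402 protein-coding genes. Genes of 55 to 60% GC had a median of 0.06 there, with a middle range (quartiles) from -0.29 to 0.43, and Per1 (1.28), Nr1d1 (1.23) and Cry2 (0.69) lay above it. These are descriptions across genes, which are not independent replicates.

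**Figure D4:**
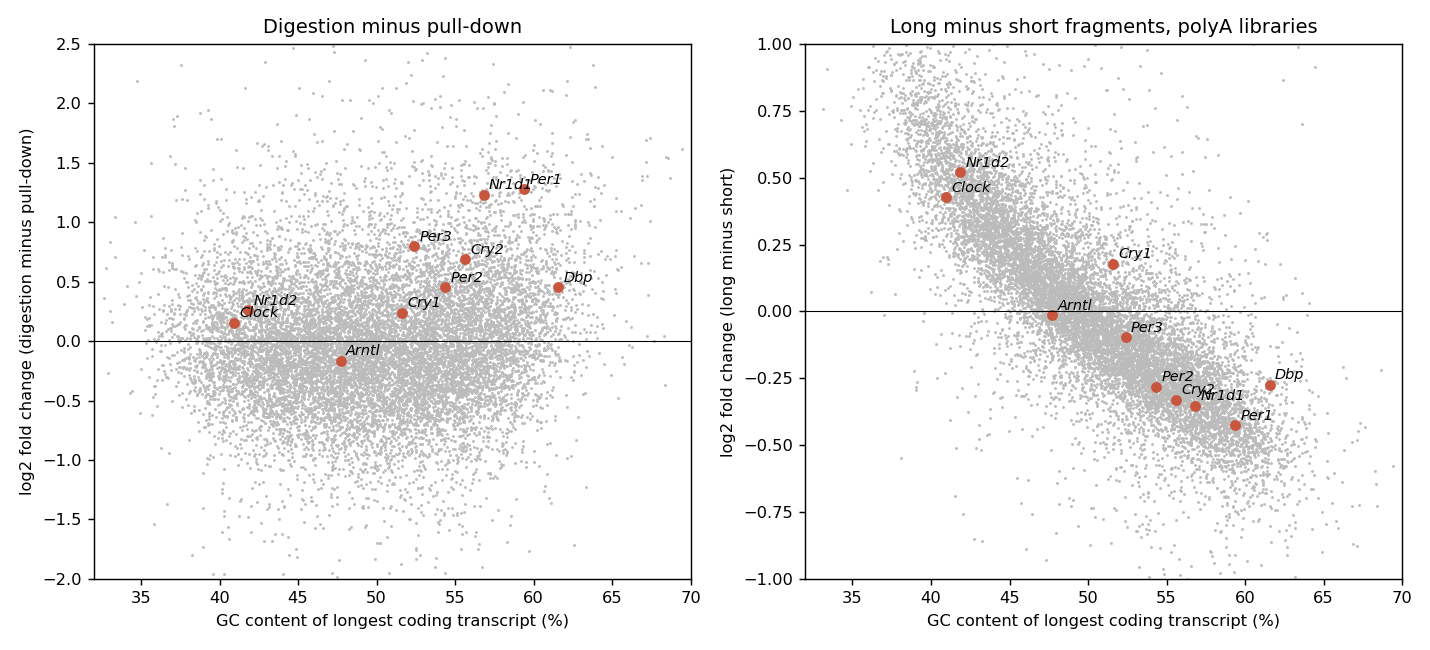
Log2 fold change (vertical axis) against GC content of the longest coding transcript in percent (horizontal axis), for digestion minus pull-down (left) and for long minus short fragments in polyA libraries (right); grey points are protein-coding genes, orange points the clock genes, and 86 of 13402 and 319 of 13005 genes fall outside the axes. On the right Clock and Nr1d2 lie at the upper left and Per1 lowest, with Cry1 and Dbp above the medians of genes of like GC content, and on the left Per1 and Nr1d1 lie above most of them.

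PCR ramp rate and batch left no member past the test. For fast minus slow ramp 0 members were higher and 0 lower (0.00657% and 0.0263% of all genes), with 0 at an unadjusted p under 0.05 by edgeR and 0 called by DESeq2. The log2 differences ran from -0.13 ± 0.07 for Dbp to 0.05 ± 0.06 for Clock. Unselected batch 2 minus batch 1 also gave 0 higher and 0 lower (0% and 0% of all genes), with 1 member at an unadjusted p under 0.05 by edgeR and 0 called by DESeq2. With 3 libraries a batch the intervals were wide, from -0.12 to 0.96 for Arntl and from -0.14 to 0.22 for Per3.

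Heart was represented by 1 unselected library, compared with the 3 unselected liver libraries of batch 1. The unselected liver libraries of batch 2 were in the fit as their own group. The spread thus came from the liver libraries of both batches, and edgeR assumed that the lone heart library varied as they did. In that fit 3 members were higher in heart and 1 lower, where 34.8% and 33.6% of all genes were called. Fewer cells of a type and less RNA per cell cannot be told apart in such bulk samples. Per1 had 259 heart counts, 35.9 normalised CPM with a Poisson 95% interval from 31.6 to 40.5, against 25.3, 25.1 and 20.7 in liver, and the interval lay above all 3. Per3 had 287 counts, 39.7 (35.3 to 44.6) against 26.0, 30.0 and 23.2. Both were about 1.51-fold higher in heart, with log2 differences of 0.60 ± 0.14 and 0.59 ± 0.14 (edgeR adjusted p = 4.67e-04 and 4.44e-04). Camta1, which overlaps Per3, was higher in heart by 4.44 on the log2 scale.

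Dbp was at 71.7 normalised CPM in heart (65.7 to 78.2) against 64.5, 57.4 and 63.4 in liver, a log2 difference of 0.21 ± 0.09 (edgeR adjusted p = 0.0408). Nr1d1 was at 97.9 (90.8 to 105.3) against 116.6, 117.9 and 108.7, a difference of -0.22 ± 0.08 (0.0145). Neither held without the second liver library (adjusted p = 0.149 and 0.0588 by edgeR) or by DESeq2 (0.0889 and 0.215), and Nr1d1 was not called on totals without ribosomal RNA genes (0.152). The overlapping genes went other ways, Sphk2 lower by 1.89 and Thra higher by 2.06 on the log2 scale. On plain totals the median of all genes was 0.53 against 0.01, 69.4% of called genes were higher in heart against 50.85%, and 7 members were higher, where 50.4% of all genes were called higher.

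Clock (38.6), Per2 (11.4), Cry2 (27.5), Nr1d2 (80.7), Cry1 (3.74) and Arntl (2.08) did not pass, and each heart interval reached the liver range. For Cry1 and Arntl, with 27 and 15 heart counts, the 95% intervals of the log2 difference ran from -0.65 to 0.80 and from -0.91 to 1.04, so changes of that size were not detectable at this depth. Per kilobase, heart kept Nr1d1 (31.8), Dbp (24.0) and Nr1d2 (14.9) as its 3 highest members and Arntl (0.276) as its lowest. Of the other clock pathway genes, 9 of 21 tested were higher and 8 lower, where 34.8% and 33.6% of all genes were called, and the list median was 0.15 beside 0.01 over all genes. Usp2 (log2 2.68 ± 0.12), Thra (2.06) and Bhlhe41, a repressor at E-boxes (2.04 ± 0.18), were highest, and Bhlhe40 (-1.51), Nfil3 (-1.43) and Rora (-1.25) lowest.

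**Figure D5:**
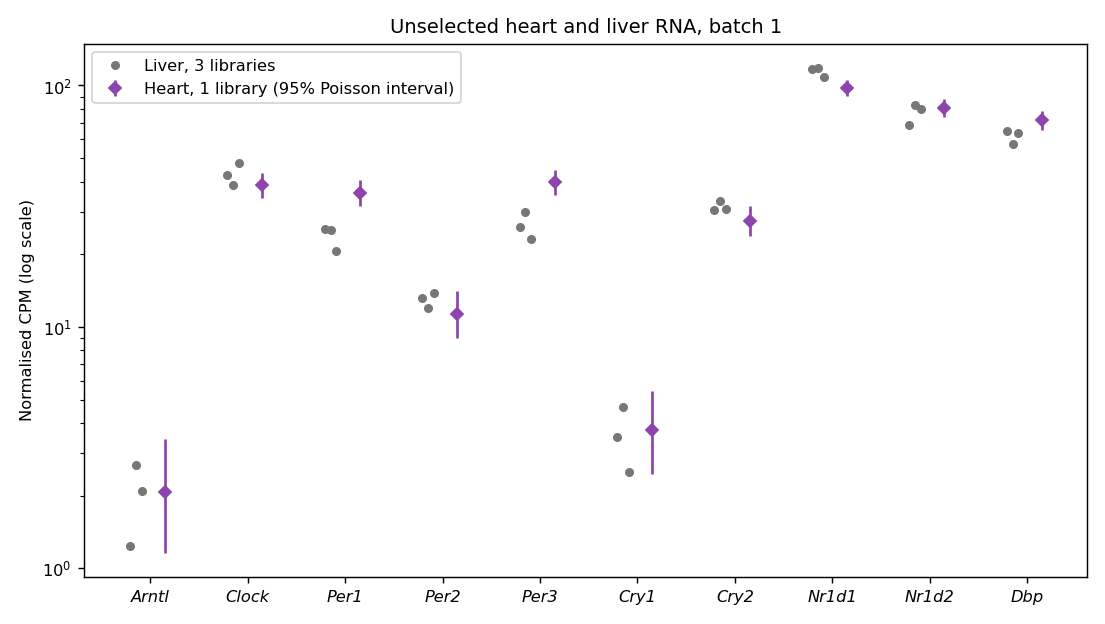
Normalised CPM (vertical axis, log scale) of each clock gene in the 3 unselected liver libraries of batch 1 (circles) and the heart library (diamond with its Poisson 95% interval). Per1 and Per3 at 35.9 and 39.7 lie above the liver libraries, and most other members lie among or near them.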

How the data were processed

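Per the labels' protocols, TRIzol and a spin column yielded the RNA of 1 mouse, and every adapter included a unique molecular identifier. The values are expected counts per gene that the authors deposited in 1 table. The submitters' processing notes name Salmon 1.9.0, UMI-tools 1.1.1, R 4.4.0 and build GRCm38 without their roles, and the transcript set and the treatment of duplicates were not given in the sources used here. The table was read through gene identifiers, 50896 of 51368 of which matched GENCODE M21.

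Expected counts were rounded to whole numbers and tested with edgeR 4.0.16 in R 4.3.3 (TMM, filterByExpr, quasi-likelihood F-test, Benjamini-Hochberg over all genes tested, threshold 0.05). Method comparisons were fitted on all 33 liver libraries with ramp and length as factors, and length within each method. Heart was fitted with the 3 unselected liver libraries of each batch as separate groups and compared with those of batch 1. Heart levels were put on the liver scale by a constant. Per-kilobase levels used union exon length. Depth per library was 1.13 to 41.4 M (mega) counts. Alternatives were DESeq2 1.42.0, plain totals, totals without ribosomal RNA genes and Lars2, no gene filter, only the groups compared, each library left out in turn and a replicate block. The procedure was tested on simulated data. All members were named, and of the other clock genes up to 3 called per direction with the largest difference. Members and lists were chosen with earlier results of these data known.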

Additional observations from a re-analysis of the deposited data

Results flagged for a closer look

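The low-depth pull-down library was far from the other 8 pull-down libraries for 7 members, by the gap to its nearest neighbour relative to the whole range. It was the highest library for Nr1d1 (100.5 normalised CPM), Dbp (110.3), Cry2 (34.3), Per1 (20.4) and Per2 (18.8), and the lowest for Nr1d2 (49.8) and Cry1 (1.63). All 7 concern this library, of 30 gene-by-method groups examined, and chance flags about 1 in 20 groups. For Cry1 the value rests on 2 counts.

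The difference between long and short fragments itself differed between the 3 methods for Nr1d2 (adjusted p = 6.11e-04 by edgeR's interaction test), Clock (0.00224), Cry2 (0.00573) and Per1 (0.04998).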

How the results depend on the processing

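Of 1100 values of single members under an alternative, 963 kept their direction and side of the threshold, 62 that were called in neither changed sign, 12 lost their call and 34 gained one. The other 29 changed sign and were called in the fit used above, under the alternative or in both, and are termed reversed here. Most of these, 24, came from plain totals, on which the whole distribution moved. For polyA minus unselected RNA the reversed log2 values were 2.37 (Arntl), 1.69 (Clock), 2.48 (Per1), 2.61 (Per2), 2.38 (Per3), 2.29 (Cry1), 2.57 (Nr1d1) and 2.45 (Nr1d2). For pull-down minus unselected RNA they were 2.09 (Arntl), 2.24 (Clock), 1.22 (Per1), 1.62 (Per3), 1.505 (Cry2) and 1.13 (Nr1d1), and for digestion minus unselected RNA 2.48 (Arntl) and 2.75 (Cry2). Between methods they were 0.39 (Arntl, digestion minus pull-down), 0.11 (Nr1d2, polyA minus pull-down) and, for polyA minus digestion, -0.15 (Cry2), -0.22 (Nr1d1) and -0.15 (Dbp). In heart minus liver they were 0.37 (Clock), 0.33 (Cry2) and 0.30 (Nr1d1). Totals without ribosomal RNA genes and Lars2 reversed Cry2 (-0.16), Nr1d1 (-0.22) and Dbp (-0.16) in polyA minus digestion. For length in pull-down, leaving out 1 library gave -0.26 to 0.37 for Nr1d1 and -0.28 to 0.26 for Dbp, and the low-depth library's absence reversed both.

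Counts of members called moved by over 1.5 times as follows, with the share of all genes called in the same fit in parentheses. PolyA minus unselected RNA had 3 (50.4%), against 10 on plain totals (94.8%) and 5 when only its own groups were fitted (52.7%). Pull-down minus unselected RNA had 4 (32.8%), against 10 on plain totals (95.2%). Digestion minus unselected RNA had 2 (14.7%), against 10 on plain totals (98.2%), 4 without ribosomal RNA genes (19.3%) and 1 to 2 with 1 library left out (8.29 to 10.4%). Length over all methods had 5 (44.7%), against 8 without the low-depth library (49.7%). Length in pull-down had 0 (6.08%), and 0 to 6 with 1 library left out (0.534 to 37.4%). Length in digestion had 2 (17.9%), against 1 by DESeq2 (6.21%) and 1 to 2 with 1 library left out (12.6 to 19.0%). Heart minus liver had 4 (68.5%), against 7 on plain totals (72.7%), 2 by DESeq2 (52.9%) and 2 to 4 with 1 library left out (65.5 to 66.6%). Counts of all genes called moved by over 1.5 times too. Pull-down minus unselected RNA had 5052, against 2809 when only its own groups were fitted and 14677 on plain totals, on which polyA minus unselected RNA had 14619 against 7768 and digestion minus unselected RNA 15143 against 2271. Digestion minus unselected RNA had 1303 without the second unselected library. Length in pull-down had 877, against 1369 by DESeq2, 2496 on plain totals and 77 to 5398 with 1 library left out, and length in digestion had 2728, against 944 by DESeq2. Ramp had 5, against 8 by DESeq2. The causes were not tested.

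Replicate numbers of the unselected batches did not pair the libraries: deviations of same-numbered libraries had r of 0.0695, -0.106 and -0.194. A fit with the replicate block called 0 members and 82 genes between batches, against 39 genes in the same 6 libraries without it, 17 by DESeq2 and 0 in the fit of all liver libraries. Depth limits Arntl and Cry1 most, with 6 to 21 counts in an unselected liver library.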
